A study of Mus musculus with 17 samples.

Results

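Replication-dependent histone genes were taken as the rows of the count tables whose symbol begins with Hist1h, Hist2h, Hist3h or Hist4h, which gave 8 of the 24594 genes listed. The 8 genes are 3 H2A genes (Hist1h2an, Hist1h2ao and Hist1h2al), 3 H2B genes (Hist1h2bp, Hist1h2bq and Hist1h2br) and 2 H4 genes (Hist1h4m and Hist1h4n), with no H1 and no H3 gene. Most of the family is listed under newer symbols: RefSeq gives 70 mouse genes with a current or older symbol of this form, of which 67 are in the tables, so 59 further family genes were kept apart and used only for comparison. The study measured RNA in CD8 T cells carrying Thy1.1, taken from mouse spleen, after knockout of Asxl1, Dnmt3a or Tet2, 3 genes that are often mutated in clonal haematopoiesis. Rosa KO, a modification of the Rosa locus, served as the control. There were 5 Rosa KO libraries and 4 libraries of each other knockout. The labels give no strain, age, treatment or knockout method and do not say that libraries came from separate animals. The p-values therefore measure only how far these libraries scatter, and part of that scatter may be technical. The numbers in the library names fall into 3 blocks, called runs here although the labels do not call them batches. Of the Rosa KO libraries, replicate 1 was in run 1 and replicates 2 to 5 were in run 3. Dnmt3a KO had replicates 1 and 2 in run 1 and replicates 3 and 4 in run 2. For Tet2 KO, replicates 1 and 2 were in run 2 and replicates 3 and 4 in run 3. Asxl1 KO was spread over all of them, with replicate 1 in run 1, replicate 2 in run 2 and replicates 3 and 4 in run 3.

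Replication-dependent histone genes supply the core histones that package newly made DNA. They are transcribed mostly during S phase from clusters of many near-identical copies, under the coactivator NPAT, and their messages end in a conserved stem-loop bound by SLBP instead of a poly(A) tail. A poly(A)-selected library therefore misses most of them, whereas the stranded total RNA libraries of this study count them. The messages build up as a dividing cell enters S phase and are degraded at its end.

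Of the 8 genes, 7 lie within 50.757 kb of mouse chromosome 13 in the GRCm38.p6 (mm10) annotation of RefSeq. From the start of this stretch they are Hist1h2an (chr13:21786774-21787248, minus strand), Hist1h2bp (chr13:21787483-21801561, plus), Hist1h2bq (chr13:21806412-21810199, minus), Hist1h2ao (chr13:21810367-21810918, plus), Hist1h4m (chr13:21811746-21812150, plus), Hist1h4n (chr13:21831792-21832197, minus) and Hist1h2br (chr13:21833743-21837530, plus). The other member, Hist1h2al (chr13:51200084-51203066), is annotated as a transcribed pseudogene and has no promoter entry. Hist1h2an and Hist1h2bp are transcribed away from each other from starts separated by 234 bases, and Hist1h2bq and Hist1h2ao from starts separated by 167 bases. The promoter windows of such a pair, 250 bases before to 50 bases after each start, therefore overlap, by 261 and 267 bases. Promoters of 3 genes, from RefSeq, are printed on their own strand to show the layouts found among the 7 genes: 2 H2B promoters that are shared with an H2A gene and 1 H4 promoter that is not. Capitals mark the CCAAT box, the TATAA box, the octamer ATTTGCAT and its variant ATTTGAAT, on either strand.
Hist1h2bp, chr13:21787238-21787537, plus strand: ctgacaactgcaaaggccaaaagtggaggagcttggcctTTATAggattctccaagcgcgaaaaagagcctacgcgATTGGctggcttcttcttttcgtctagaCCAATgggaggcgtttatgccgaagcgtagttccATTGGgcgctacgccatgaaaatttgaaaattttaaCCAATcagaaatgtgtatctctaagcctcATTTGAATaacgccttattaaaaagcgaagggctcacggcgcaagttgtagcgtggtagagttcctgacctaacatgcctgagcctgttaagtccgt
Hist1h2bq, chr13:21810150-21810449, minus strand: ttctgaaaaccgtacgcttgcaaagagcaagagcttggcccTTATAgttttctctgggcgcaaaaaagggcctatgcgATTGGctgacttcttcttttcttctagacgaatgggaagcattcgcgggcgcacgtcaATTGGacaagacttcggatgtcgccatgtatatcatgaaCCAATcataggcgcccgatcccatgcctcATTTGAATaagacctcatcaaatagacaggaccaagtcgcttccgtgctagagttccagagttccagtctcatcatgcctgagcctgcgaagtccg
Hist1h4m, chr13:21811496-21811795, plus strand: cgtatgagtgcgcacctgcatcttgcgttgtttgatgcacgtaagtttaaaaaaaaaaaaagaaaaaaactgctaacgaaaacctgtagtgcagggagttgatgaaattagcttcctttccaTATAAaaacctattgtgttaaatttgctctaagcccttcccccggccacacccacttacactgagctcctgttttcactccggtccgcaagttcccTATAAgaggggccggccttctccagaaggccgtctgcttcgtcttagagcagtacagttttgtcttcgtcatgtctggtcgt

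The Hist1h2br promoter is the same as that of Hist1h2bq at 300 of 300 bases, and the Hist1h4n promoter matches that of Hist1h4m at 298 of 301 aligned positions. Hist1h2bp and Hist1h2bq, by contrast, match at 218 of 321 aligned promoter positions although their coding sequences match at 375 of 381 bases. CCAAT, the letters bound by NF-Y, was present in 5 of the 7 member promoters (71.4%), in 86.8% of 53 other family promoters and in 37.9% of all 27025 promoters of this length. TATAA was present in 7 of 7, 77.4% and 25.5% of the same sets. In Hist1h2bp, Hist1h2bq and Hist1h2br the only match lies on the opposite strand, near the upstream end of the window. For Hist1h2bp and Hist1h2bq it is the same site as that of the facing H2A gene. In Hist1h2ao this site lies after the RefSeq start, close to the end of the window. The count of 7 of 7 therefore includes a match that is not upstream of the annotated start. The spacing of 167 bases given above rests on that same start. The octamer ATTTGCAT, known from H2B promoters as a site for POU2F1, was in 0 of 7 member promoters, in 24.5% of other family promoters and in 1.75% of all promoters. ATTTGAAT, which differs from the octamer at 1 base and was added after the sequences had been read, was in 5 of 7, 15.1% and 1.27%. No motif searched contains another, and the 5 promoters with CCAAT and ATTTGAAT are not independent, since the paired genes share the bases and Hist1h2br repeats Hist1h2bq. The 7 promoters with TATAA are not independent for the same reasons, and Hist1h4n nearly repeats Hist1h4m.

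The 3′ stem-loop was searched in the GENCODE M21 transcripts as a perfectly paired 6-base stem opening with GG around a 4-base loop opening with TT, beyond base 250 of the transcript. It was found in 4 of the 7 members with an annotated transcript and in 38 of 58 other family genes, against 0.312% of all 55450 GENCODE genes. The 4 matches are printed as the stem and loop in capitals with up to 5 bases on either side, because this element is what the processing machinery of these messages reads.
Hist1h2ao: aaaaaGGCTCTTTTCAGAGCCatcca
Hist1h2bp: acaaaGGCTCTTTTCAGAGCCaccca
Hist1h4m: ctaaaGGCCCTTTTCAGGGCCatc
Hist1h4n: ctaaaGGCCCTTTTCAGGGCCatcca
The H2A and H2B matches share 1 core, which 24 family genes carry in all, and the H4 matches share another, carried by 7. No match was found in the annotated transcripts of Hist1h2an, Hist1h2bq and Hist1h2br. The only Hist1h2an transcript, of 393 bases, ends with the coding sequence. So do the shortest transcripts of Hist1h2bq and Hist1h2br, of 381 bases, while their longer ones gave no match either. Some other family genes without a match also have only a short transcript, such as H2bc13 (381 bases) and H4c12 (312 bases). The counts above therefore describe the annotated transcripts and do not show that a gene lacks the stem-loop.

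Near-identical copies limit what a count of any of these genes means. Hist1h2bq and Hist1h2br have the same coding sequence at 381 of 381 bases, Hist1h4m and Hist1h4n at 312 of 312, and Hist1h2an and Hist1h2ao at 388 of 393. Of all 50-base stretches of the annotated transcripts, the share found in no other gene's transcripts was 2.68% for Hist1h2bq, 6.50% for Hist1h2ao, 10.2% for Hist1h4m, 11.3% for Hist1h2br, 14.2% for Hist1h2an, 14.4% for Hist1h4n and 55.9% for Hist1h2bp. The median was 11.3% for these 7 genes and 55.2% for 58 other family genes. Hist1h2bq and Hist1h2br share 1961 such stretches, of 2015 and 2212. Hist1h2ao shares 403 of its 431 with the separate GENCODE gene Hist1h2ap, which is not analysed here. How the authors' counting treated reads that fit several copies is not given in the sources used here, nor whether counting used the strand, so the level of each single copy is uncertain.

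The 17 libraries held 6625833 to 40701203 counts, median 21642477. Cd8a stood at 641 to 1240 and Cd3e at 1246 to 4966 CPM (read counts scaled to library size, here with TMM factors), while Cd4 ranged from 0.0904 to 99.5 CPM, with its 4 highest values in the 4 Dnmt3a KO libraries. Each knockout's own target was tested first with edgeR, and 0 of 3 passed: against Rosa KO, Asxl1 stood at -0.13 ± 0.21 (log2 fold change ± SE), Dnmt3a at -0.06 ± 0.28 and Tet2 at -0.26 ± 0.23 (adjusted p = 0.836, 0.978 and 0.734). How the genes were disrupted is not given, so whether a whole-gene count can check the knockout is not known.

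The 8 genes together took 0.00313% to 0.0130% of a library's counts (611 to 3081 counts), and 3.16% to 5.99% of all family counts. Per kilobase of annotated exon, Hist1h2ao had the highest mean of the members, 31.8 ± 17.6 RPKM (SD, n = 17 libraries). It was not the highest in every library: in Dnmt3a KO 3 it stood at 3.40, below Hist1h2bq (7.12) and Hist1h2bp (8.60). Hist1h2bq at 16.7 ± 6.94, Hist1h2bp at 16.4 ± 6.25 and Hist1h2an at 14.2 ± 7.46 RPKM followed. Hist1h2br stood at 3.89 ± 1.68, Hist1h4n at 2.22 ± 1.14 and Hist1h4m at 2.06 ± 1.18 RPKM. The SDs describe the spread between libraries, which all the genes share, and differences between the genes were not tested. These 7 genes held ranks 17, 24, 25, 27, 53, 59 and 61 among 65 family genes with an annotated length. The annotated exons of Hist1h2bq and Hist1h2br run to 2015 and 2212 bases because of long transcript models, so their values per kilobase would be higher over the coding part alone.

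All levels below are TMM-scaled CPM. Hist1h2bq, an H2B copy and the most counted member, stood at 31.7, 34.4, 50.9, 22.1 and 42.5 in Rosa KO 1 to 5, at 23.6, 13.6, 37.1 and 45.1 in Asxl1 KO 1 to 4, at 47.8, 44.5, 14.3 and 25.01 in Dnmt3a KO 1 to 4 and at 17.4, 19.1, 57.1 and 47.1 in Tet2 KO 1 to 4. Each knockout thus overlapped Rosa KO, and the only libraries below 20 were 4 of the 5 in run 2. Hist1h2ao, an H2A copy, stood at 8.54, 26.2, 19.3, 12.9 and 20.2 in Rosa KO, at 11.5, 7.36, 16.8 and 19.6 in Asxl1 KO, at 21.3, 25.1, 1.63 and 4.79 in Dnmt3a KO and at 6.10, 6.33, 27.5 and 24.6 in Tet2 KO. Its 5 lowest values were the 5 libraries of run 2, from whichever knockout. Hist1h2an, which matches Hist1h2ao at 388 of 393 coding bases, stood at 5.59, 6.01, 7.27, 6.75 and 8.01 in Rosa KO, at 3.39, 2.70, 6.32 and 7.90 in Asxl1 KO, at 6.35, 7.14, 0.815 and 2.26 in Dnmt3a KO and at 2.48, 1.22, 10.8 and 9.56 in Tet2 KO. Here too the libraries of run 2 were the 5 lowest. How many of all tested genes order the libraries in this way was not computed, so nothing is read from that order.

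Hist1h2bp, the H2B copy that faces Hist1h2an, stood at 11.8, 8.86, 11.1, 16.1 and 9.52 in Rosa KO, at 11.8, 5.49, 11.97 and 12.8 in Asxl1 KO, at 17.2, 17.9, 6.07 and 9.45 in Dnmt3a KO and at 6.07, 6.78, 20.2 and 14.0 in Tet2 KO. Both libraries of Dnmt3a KO in run 1 were above all Rosa KO libraries, and both in run 2 were below the Rosa KO median. Hist1h2br, the second copy of Hist1h2bq, stood at 9.19, 7.91, 12.8, 10.01 and 8.76 in Rosa KO, at 1.30, 2.64, 11.1 and 11.4 in Asxl1 KO, at 12.6, 5.54, 3.91 and 8.82 in Dnmt3a KO and at 5.82, 8.10, 12.6 and 13.7 in Tet2 KO. Its lowest library was Asxl1 KO 1, a library of run 1. The 3 remaining genes were near the limit of counting. Hist1h4m had 3 to 55 counts in a library (0.159 to 1.85 CPM), Hist1h4n 2 to 50 (0.0760 to 1.77 CPM) and Hist1h2al 7 to 77 (0.380 to 1.83 CPM), and for each of them all 4 groups overlapped.

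**Figure D1:**
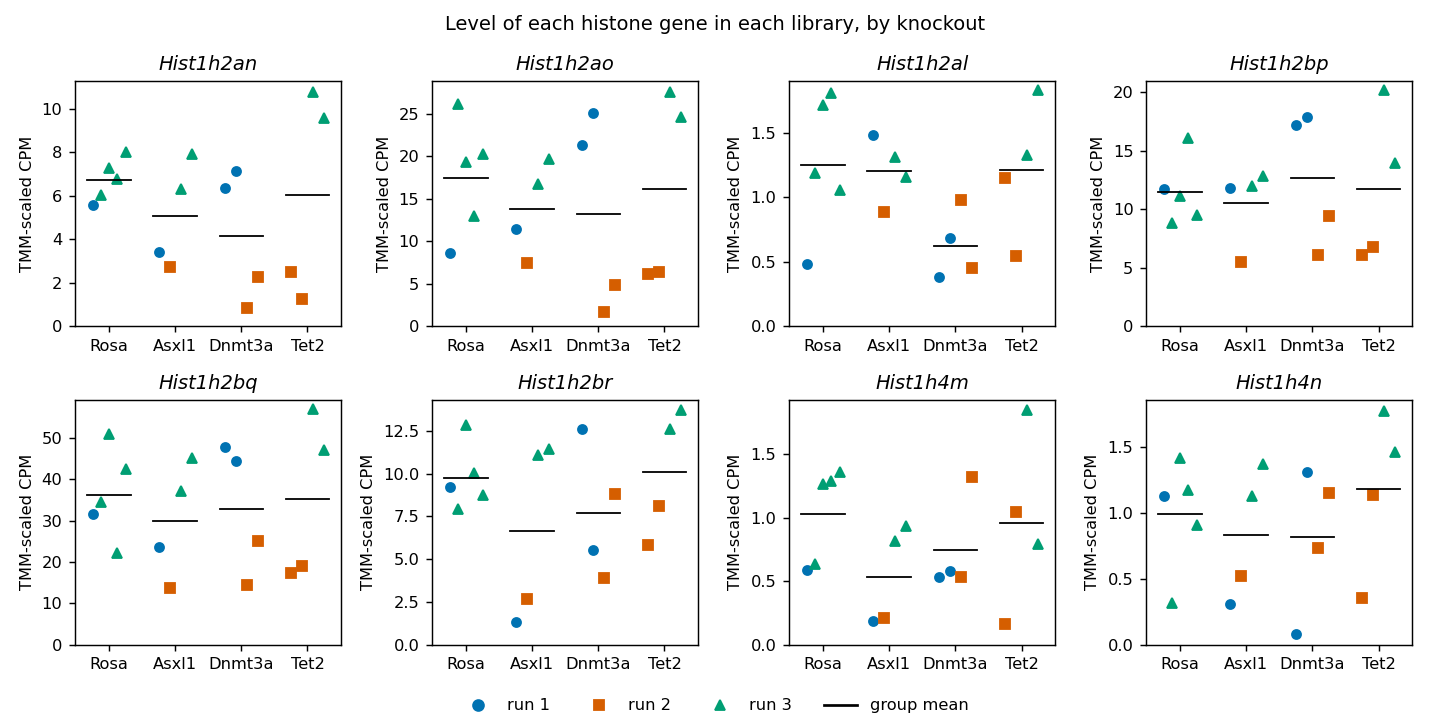
Level of each of the 8 genes in each library (vertical axis, TMM-scaled CPM, linear and starting at 0) by knockout, with the run shown by colour and shape and the group mean as a bar. In the panels of Hist1h2an and Hist1h2ao the 5 squares of run 2 lie below every other library (at most 2.70 and 7.36 CPM), and in every panel the knockouts overlap Rosa KO. The share of all tested genes with such an order of runs was not computed.

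Knockout of Asxl1, a partner of the Polycomb deubiquitinase BAP1, went with no detected change in these genes. Against Rosa KO, 0 of 8 passed (edgeR, adjusted p under 0.05), where 1.64% of all 13881 genes tested did. All 8 had passed the filter on low counts. Hist1h2bq, the member measured most precisely, had a log2 difference of 0.00 ± 0.29 (SE; adjusted p = 1.00), and Hist1h2ao by 0.24 ± 0.45 (0.857). Hist1h2br had the lowest precise value, -0.53 ± 0.53 (0.701), and Hist1h4m a lower but looser one, -0.83 ± 1.21 (0.807). The fold changes were positive for 5 and negative for 3, with a median of 0.05, beside a median of 0.12 for 57 other family genes and 0.00 for all genes. The run mattered for the median, which was 0.07 in run 3 (2 Asxl1 KO against 4 Rosa KO libraries) and -0.58 in run 1, where each group had 1 library.

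Knockout of Dnmt3a, a DNA methyltransferase, gave 0 of 8 against a background of 0.216%. Here Hist1h2bq came nearest to the threshold, at 0.64 ± 0.33 (adjusted p = 0.648), with Hist1h2bp at 0.68 ± 0.47 (0.762) and Hist1h2br at 0.55 ± 0.61 (0.881). Hist1h2ao stood at 0.33 ± 0.55 (0.935) and Hist1h2an at 0.17 ± 0.71 (0.976). The sign was positive for 7 of 8 and the median 0.44, beside 0.23 for the other family genes. These values rest on the run term: the raw mean of Hist1h2bq was 32.9 ± 15.9 CPM in Dnmt3a KO (SD, n = 4) against 36.3 ± 10.9 in Rosa KO (n = 5), and without a run term its fold change was -0.14. Run 1 is the only run that holds both groups, with 1 Rosa KO library, and there the median was 0.205. Without Rosa KO 1 the median was 0.76 and Hist1h2ao turned to -0.25, and without Dnmt3a KO 3 the median was 0.74.

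Knockout of Tet2, which oxidises 5-methylcytosine, gave 0 of 8 against a background of 1.47%. All 8 fold changes were positive, from 0.10 for Hist1h4m to 0.61 ± 0.46 for Hist1h2ao (adjusted p = 0.669), with Hist1h2bp at 0.50 ± 0.41 (0.714), Hist1h2bq at 0.46 ± 0.29 (0.588) and Hist1h2an at 0.36 ± 0.62 (0.891). The median was 0.38, beside 0.46 for the other family genes, of which 48 of 57 were positive. In run 3, the only run with both groups, the 8 fold changes were again all positive (median 0.45) and 0 of 8 passed. Of the 8 genes, all but Hist1h2br and Hist1h2al were higher in Tet2 KO 3 than in each Rosa KO library of that run. Tet2 KO 4 was above those Rosa KO libraries for Hist1h2an, Hist1h2br, Hist1h4n and Hist1h2al and overlapped them for Hist1h2ao, Hist1h2bp, Hist1h2bq and Hist1h4m. Its margin was narrow for Hist1h4n (1.46 against at most 1.42 CPM) and Hist1h2al (1.83 against at most 1.81 CPM). The share of all tested genes with such an order was not computed, so no result is read from it. Without a run term the median was -0.049.

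No member passed between the knockouts either. Asxl1 KO against Dnmt3a KO gave 0 of 8 (background 0.353%), with 7 of 8 negative, a median of -0.55 and the smallest p at Hist1h2bq, -0.64 ± 0.31 (adjusted p = 0.457). That median was -0.056 without a run term, -1.01 in run 1 and -0.26 without Dnmt3a KO 2. Asxl1 KO against Tet2 KO gave 0 of 8 (background 0.562%), with 7 of 8 negative and a median of -0.42. Dnmt3a KO against Tet2 KO gave 0 of 8 (background 0.0937%), with 4 of each sign and a median of 0.07, which was -0.37 without a run term and -0.20 without Dnmt3a KO 4. At an unadjusted p under 0.05 the count was also 0 of 8 in each of the 6 comparisons, where 15.7% (Asxl1 KO), 8.03% (Dnmt3a KO) and 12.2% (Tet2 KO) of all genes reached it against Rosa KO. Between the knockouts that share was 11% (Asxl1 KO against Dnmt3a KO), 7.21% (Asxl1 KO against Tet2 KO) and 5.6% (Dnmt3a KO against Tet2 KO), and DESeq2 called 0 of 8 in each. Comparisons with Rosa KO share its libraries and are not independent of each other.

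**Figure D2:**
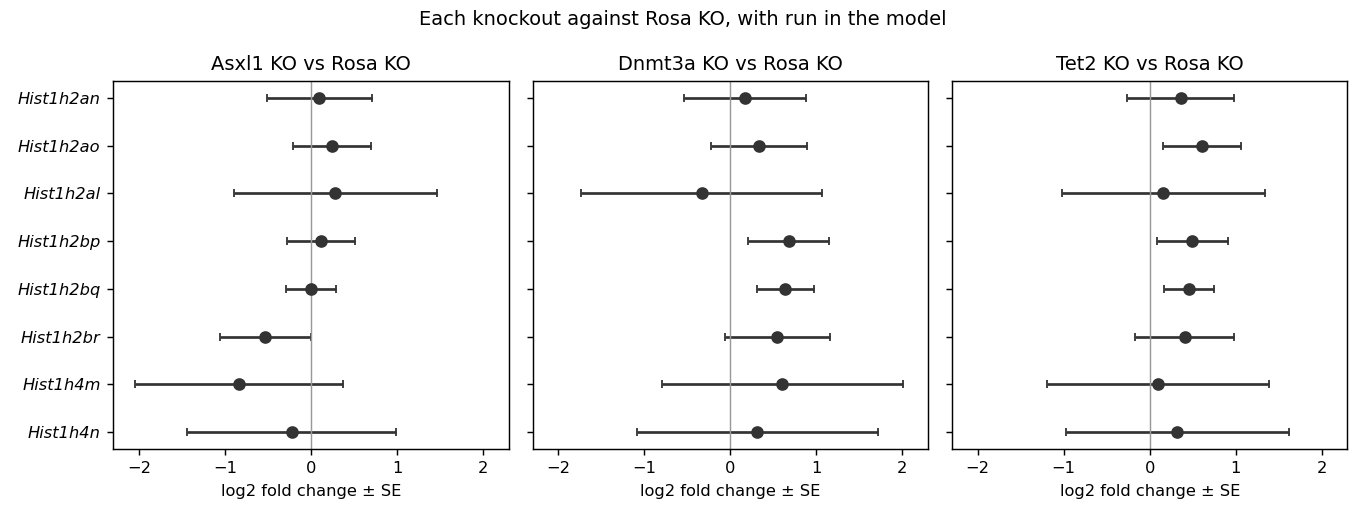
Log2 fold change of each gene against Rosa KO in the fit with a run term (horizontal axis, point with SE bar) for the 3 knockouts. The SE of Hist1h2bq is the shortest (0.29 to 0.33) and those of Hist1h4m, Hist1h4n and Hist1h2al the longest (1.18 to 1.41), and no gene passed the adjusted threshold.

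The larger differences in these genes followed the run. Summed over the 8 genes, the level was 39.9 ± 9.46 CPM in run 2 (SD, n = 5; 29.0 to 53.3), 82.8 ± 25.7 in run 1 (n = 4; 53.5 to 106) and 98.6 ± 18.95 in run 3 (n = 8; 72.2 to 133). By knockout it was 84.95 ± 15.03 in Rosa KO, 68.4 ± 30.5 in Asxl1 KO, 72.8 ± 37.9 in Dnmt3a KO and 82.5 ± 47.7 in Tet2 KO, and these overlapped. Rosa KO, with no library in run 2, had the narrowest spread of the 4. Taken alone, run accounted for a median of 58.1% of the variance in log2 CPM of the 8 genes. Knockout, also taken alone, accounted for 13.9%. The same shares were 25.6% and 19.0% for all genes tested and 61.3% and 12.4% for the other family genes. Run and knockout are unevenly combined, so these shares overlap, and neither is adjusted for the other. Either factor takes some share even without an effect. The run share was largest for Hist1h2an (81.1%) and Hist1h2ao (72.1%) and smallest for Hist1h4n (21.2%).

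**Figure D3:**
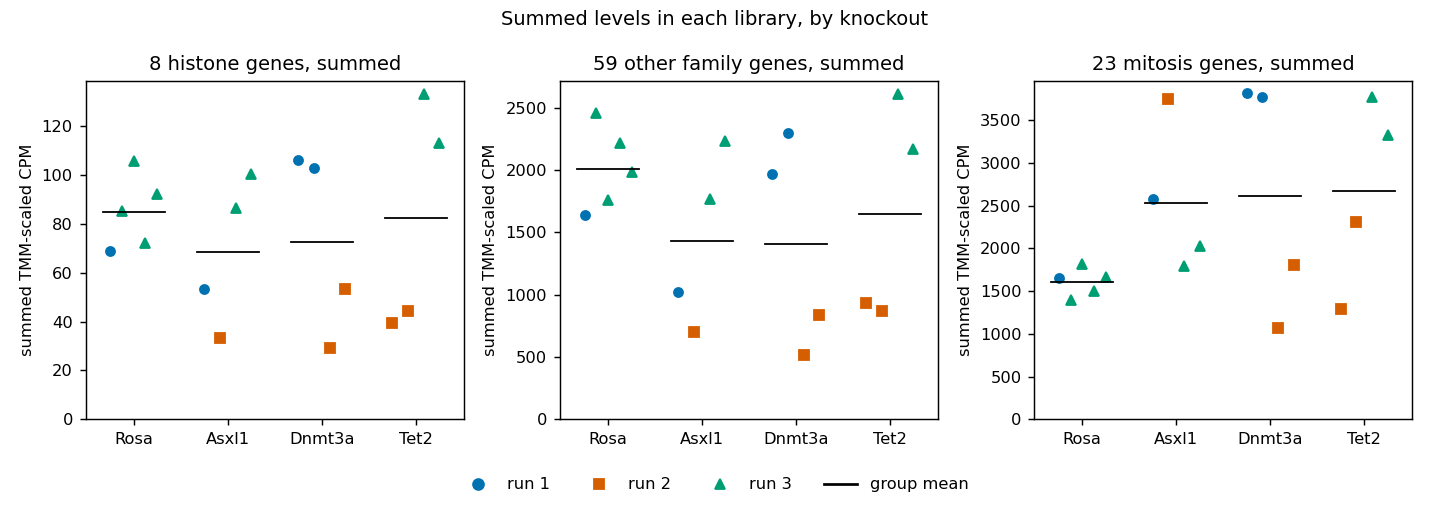
Summed TMM-scaled CPM of the 8 genes, of the 59 other family genes and of 23 mitosis genes in each library (vertical axes, linear and starting at 0) by knockout, with the run shown by colour and shape and the group mean as a bar. In the first panel the 5 libraries of run 2 (29.0 to 53.3 CPM) lie below all others; in the third they do not, the highest of them reaching 3751 CPM.

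A test of the run terms was added after these levels had been seen. In run 2 against run 3, with knockout in the model, 4 of 8 genes were lower and 0 higher, against a background of 6.49% of genes lower and 12.1% changed in either direction. They were Hist1h2bq, at -1.56 ± 0.28 on the log2 scale (SE; adjusted p = 4.2e-04), Hist1h2ao at -2.20 ± 0.44 (0.00125), Hist1h2an at -2.13 ± 0.61 (0.0204) and Hist1h2bp at -1.28 ± 0.40 (0.0336). Hist1h2br, at -1.32 ± 0.54 (0.119), did not pass, nor did Hist1h4m, Hist1h4n and Hist1h2al, at -1.21, -0.82 and -0.71 with SE above 1.1. All 8 were negative, with a median of -1.30. Among the other family genes 34 of 57 were lower and none higher, the median was -1.70, and the median of all genes was -0.02. In Tet2 KO alone, which has 2 libraries in each of these runs, Hist1h2ao (-2.07 ± 0.41, adjusted p = 0.0347) and Hist1h2bq (-1.52 ± 0.29, 0.0291) were lower, 2 of 8 against a background of 3.02% lower and 4.18% in either direction. In run 2 against run 1, 3 of 8 were lower (background 8.46% lower and 15.5% in either direction): Hist1h2ao at -1.82 ± 0.48 (0.0106), Hist1h2bq at -1.13 ± 0.29 (8.5e-03) and Hist1h2bp at -1.22 ± 0.41 (0.0420). In run 1 against run 3 the count was 0 of 8, where 5.78% of genes were lower and 13.5% changed in either direction.

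**Figure D4:**
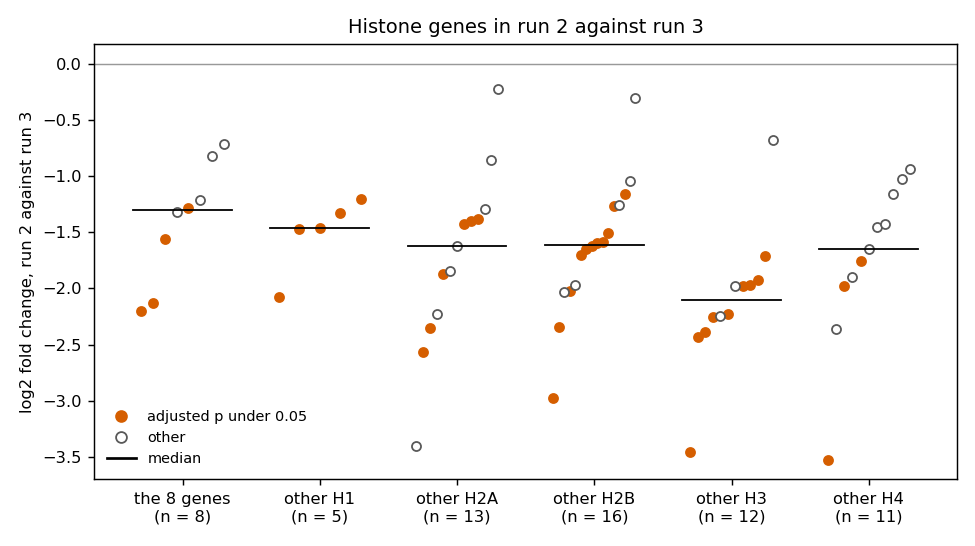
Log2 fold change of run 2 against run 3 (vertical axis) for the 8 genes and for the other tested family genes by histone class, filled where the adjusted p was under 0.05, with the median of each class as a bar. All 65 points lie below 0, and the median of the 8 genes, -1.30, is the nearest to 0 while that of H3 is the lowest.

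Other transcripts moved with the run as well. In run 2 against run 3, 12 of 40 DNA replication genes were lower (median -0.65), as were 4 of 23 mitosis genes (-0.80), 7 of 9 replication-independent histone genes (-0.9997) and 3 of 11 RNAs that lack a poly(A) tail (-2.01), the last with summed levels of 10898 to 14327 CPM in run 2 and 11651 to 44171 in run 3. Histone mRNA processing genes did not follow, with 0 of 18 in either direction and a median of 0.03. Of the CD8 T cell genes themselves, 2 of 9 were lower in run 2 than in run 3 (median -0.39; 4700 to 5984 and 5167 to 8569 CPM summed), and 6 of 9 were lower than in run 1 (-0.62). Of the markers of other cells, 0 of 11 B cell genes passed (median -0.61; 123.96 to 1867 CPM summed in run 2, 546 to 2425 in run 3), 1 of 4 plasma cell genes (-1.87; 5.92 to 192 and 208 to 532 CPM), 0 of 8 neutrophil genes (-1.85; 3.93 to 130 and 70.7 to 227 CPM), 0 of 8 erythroid genes (0.82; 27.4 to 166 and 62.5 to 102 CPM) and 0 of 6 NK cell genes (-0.30; 154 to 288 and 198 to 677 CPM). Neither did any of 7 myeloid genes pass (median -0.29; 248 to 683 and 468 to 825 CPM), nor any of 4 CD4 T cell genes (0.33; 11.7 to 88.9 and 15.1 to 42.1 CPM). Against run 1, 4 of 8 erythroid genes were lower in run 2 (median -3.20, with 441 to 2976 CPM summed in run 1). So were 2 of 8 neutrophil genes (-3.11) and 1 of 7 myeloid genes (-0.996). Of 6 NK cell genes 1 was higher and 1 lower. No B cell, plasma cell or CD4 T cell gene passed there. Lower in run 2 than in run 1 were also 12 of 40 DNA replication genes (-0.71) and 8 of 23 mitosis genes (-1.21). The part of all these markers in the lower histone level was not tested. In such bulk libraries, fewer cells in S phase and less histone RNA per cell cannot be told apart. Neither can be told apart from a technical difference between the runs.

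Within the pairs of near-identical copies the split of counts was not constant. Hist1h2bq took 11665 of the 14844 counts listed for it and Hist1h2br together. In single libraries it took between 68.9% (95% Wilson interval 66.4 to 71.3, Rosa KO 4) and 94.8% (92.2 to 96.6, Asxl1 KO 1), median 79.2%. The intervals of these 2 libraries do not overlap, and they cover counting error only. The 2 highest were Asxl1 KO 1 and, at 88.9%, Dnmt3a KO 2, both of run 1. Hist1h4m took 302 of 650 counts of the H4 pair, between 28.6% and 87.5%, with 8 to 105 counts per library. The highest, Dnmt3a KO 1, had 14 of 16 counts (63.98 to 96.5). Hist1h2ao took 5112 of 7026 counts of the H2A pair, from 60.5% in Rosa KO 1 to 83.8% in Tet2 KO 2, median 71.96%. The gene that shares the most 50-base stretches with Hist1h2ao is Hist1h2ap (403), not Hist1h2an. No gene shares more of them with Hist1h2an than Hist1h2ah does (277).

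**Figure D5:**
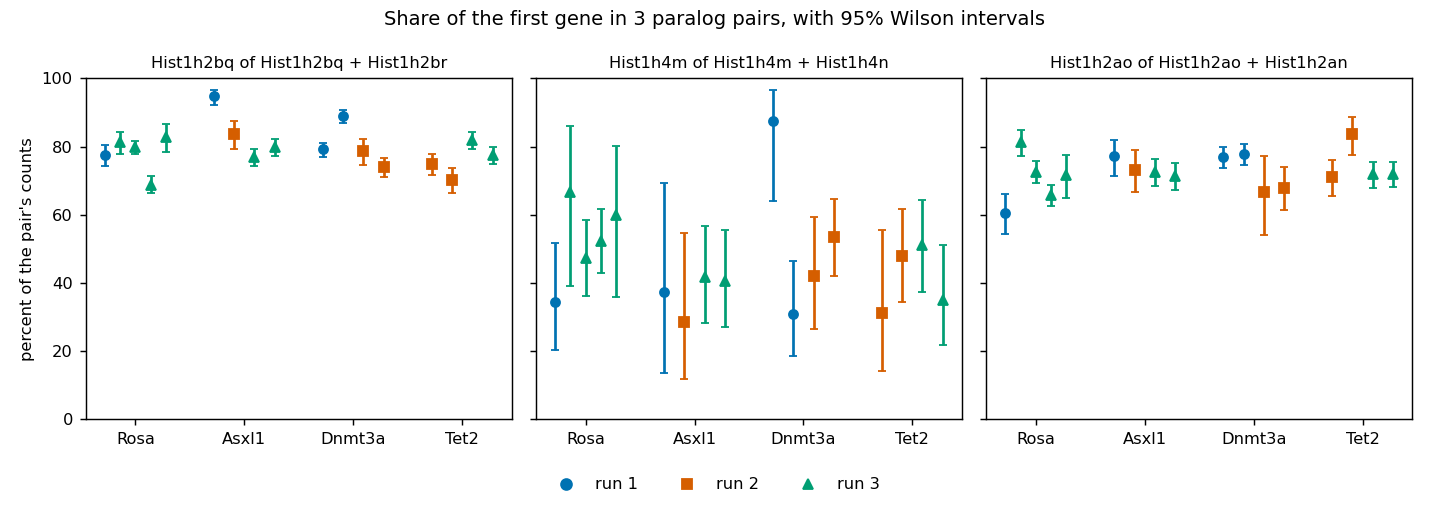
Share of the first gene in the counts of 3 pairs of near-identical copies (vertical axis, percent) in each library by knockout, with 95% Wilson intervals for counting error and the run shown by colour and shape. Hist1h2bq reaches 94.8% in Asxl1 KO 1 and is at 68.9% in Rosa KO 4, and the intervals of the H4 pair are wide because it has as few as 8 counts.

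Genes that make, process, carry or accompany histones were read from fixed lists. None of the 18 tested genes of histone mRNA synthesis and processing passed in any comparison; Slbp, the stem-loop binding protein, stood at 0.08 ± 0.16, -0.12 ± 0.19 and 0.27 ± 0.17 and Npat at 0.18 ± 0.22, -0.34 ± 0.26 and -0.16 ± 0.23 in Asxl1, Dnmt3a and Tet2 KO against Rosa KO. Of 21 histone chaperones, Asf1b, which hands H3-H4 to the replication fork, rose in Asxl1 KO (1.61 ± 0.34, adjusted p = 0.0114) and in Tet2 KO (1.51 ± 0.34, 0.0225). Of 9 replication-independent histone genes, H2afz, the H2A.Z variant, rose in Tet2 KO (0.89 ± 0.22, 0.0361), and H1f0, a linker histone of quiescent cells, was higher in Asxl1 KO than in Dnmt3a KO (1.71 ± 0.32, 0.0156). The H3.3 gene H3f3b passed in none of the comparisons (-0.31, -0.04 and 0.09 against Rosa KO).

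The DNA replication genes on these lists gave more calls in Tet2 KO than in the other 2 knockouts, a difference that was not tested. Over all 13881 genes, 113 rose and 114 fell in Asxl1 KO, 5 and 25 in Dnmt3a KO and 137 and 67 in Tet2 KO. In Tet2 KO 5 of 40 replication genes rose: Pcna, the sliding clamp (0.63 ± 0.15, adjusted p = 0.0295), the helicase subunits Mcm2 (0.97 ± 0.22, 0.0244), Mcm3 (0.93 ± 0.22, 0.0295) and Mcm6 (0.55 ± 0.14, 0.0467), and Dut, which clears dUTP (0.98 ± 0.22, 0.0216). Dut was the 1 of 40 that rose in Asxl1 KO (0.85 ± 0.21, 0.0391) and in Dnmt3a KO (1.23 ± 0.25, 0.0258). Of 23 mitosis genes 3 rose in Tet2 KO, Ccna2 (1.29 ± 0.29, 0.0270), Ccnb2 (1.43 ± 0.28, 8.5e-03) and Tpx2 (1.28 ± 0.31, 0.0324), and 0 in the other 2 knockouts. All 23 were positive in each knockout against Rosa KO, with medians of 0.93, 0.82 and 0.97 in Asxl1, Dnmt3a and Tet2 KO. Mki67, the proliferation marker, did not pass (0.70 ± 0.38, 0.44 ± 0.45 and 0.94 ± 0.36). The difference between these lists and the 8 histone genes was not tested. Markers of cell types moved in the same comparisons: the CD8 T cell genes Cd3d, Cd3g, Cd2 and Zap70, 4 of 9, rose in Asxl1 KO and Cd3d, 1 of 9, in Tet2 KO (0.68 ± 0.17, adjusted p = 0.0405), while the NK cell genes Klrb1c and Klre1, 2 of 6, fell in each knockout. No B cell gene passed (0 of 11; medians -1.05, 0.44 and -0.12 in Asxl1, Dnmt3a and Tet2 KO), and their part in the histone values was not tested.

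Family genes outside the 8 gave the same count. In each of the 6 comparisons 0 of 57 passed, with 1 to 5 at an unadjusted p under 0.05. Family genes known to make polyadenylated messages as well, H1f2, H2bc4, H2bc21 and H4f16, stood at 173, 22.2, 16.2 and 6.49 CPM on average and gave 0 of 4 in each comparison. Of the testis genes, H1f6 and H2ac1 were left out by the filter (at most 0.798 and 0.123 CPM), and H2bc1 stood at 1.17 CPM and did not pass.

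A ranking that left out all family genes, not only the 8, compared log2 CPM with the summed level of the 8 genes. It covered the 17 libraries after removal of the run means. The 10 tested genes that followed that level most closely were Actr3 (Pearson r = 0.93), Phf5a (0.87), Chek1 (0.86), Vdac3 (0.85), Rbm3 (0.84), H2afz (0.84), Psma1 (0.83), Ramac (0.82), Canx (0.82) and Cnih1 (0.82). These are the highest of all correlations computed and are given as a description. Against the summed level of the other family genes, r was 0.68 for Hist1h2ao, 0.66 for Hist1h2an, 0.61 for Hist1h2br, 0.50 for Hist1h2bq and 0.48 for Hist1h2bp. It was 0.29 for Hist1h4m, 0.08 for Hist1h4n and -0.51 for the pseudogene Hist1h2al. Within a knockout and run, the spread of log2 CPM was smallest for Hist1h2bp (SD 0.32) and Hist1h2bq (0.39) and largest for Hist1h4n (1.01) and Hist1h4m (0.74).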

How the data were processed

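The 17 CD8 T cell libraries were made from total RNA with a stranded kit, per the labels' protocols, although the molecule field reads genomic DNA. Per the submitters' processing notes, mm10, STAR 2.5.3a and DESeq2 1.26.0 were used, in roles left unstated. Which counter, annotation and strand setting were used is not given in the sources used here. The deposited values are raw counts per gene, as whole numbers that sum to different totals, with 24594 genes in each table. Counts were fitted with edgeR 4.0.16 in R 4.3.3 (quasi-likelihood F test, TMM scaling, filterByExpr with a minimum count of 10 and a total of 15, knockout and run as terms, 11 residual degrees of freedom), which kept 13881 genes. P-values were adjusted by Benjamini-Hochberg over those genes, with a threshold of 0.05. Levels are TMM-scaled CPM, log2 CPM used a prior count of 2, and RPKM used GENCODE M21 exon lengths. The fit was also run on simulated counts, but with less scatter between libraries than in these data and no run effect. That check therefore does not show how often a change would be found here. Alternatives were DESeq2 1.42.0, its size factors, no filter, no run term, a replicate block, fits of 2 groups, fits within a run, each library left out and, added after seeing the data, run 2 left out and tests of the run terms. Genes named are the 3 highest of each class, any member that passed, listed genes that passed with Slbp, Npat, Mki67, Pcna and H3f3b, the 10 most alike genes outside the family and those of largest and smallest spread within knockout and run. Levels of all 8 are given. Members and lists were chosen with earlier results of these data known. Counts of libraries of 1 group differed by more than sampling noise in all 28 pairs (chi-square per degree of freedom 19.7 to 258), so none was treated as 1 library deposited again; this does not show that they came from separate animals.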

Additional observations from a re-analysis of the deposited data

Results flagged for a closer look

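Among 40 combinations of a measure and a knockout, 3 held a library whose gap to the nearest other, divided by the group's range, was above the 95% critical value of Dixon's test, and chance flags about 1 in 20. Hist1h2bp stood at 5.49 CPM in Asxl1 KO 2, the library of that group in run 2, with the other 3 at 11.8 to 12.8. Hist1h4m stood at 1.32 CPM in Dnmt3a KO 4, from 38 counts, with the others at 0.530 to 0.583. The 8 genes made up 4.05% of all family counts in Tet2 KO 1, with the other 3 libraries of that knockout at 4.84% to 4.94%.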

How the results depend on the processing

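The fits tried used DESeq2, other size factors, no filter, no run term, a replicate block, 2 groups only or single runs. Others left out run 2 (an alternative chosen after seeing the data) or each library in turn. The count of 8 histone genes past the threshold was 0 in all 102 combinations of such a fit with 1 of the 6 comparisons. That 0 says nothing about stability where no gene of the whole table passed, as in Dnmt3a KO against Rosa KO with the replicate block, in Asxl1 KO against Dnmt3a KO within run 2 (2 residual degrees of freedom) and in Dnmt3a KO against Tet2 KO without run 2, and little where few did. The median fold change moved with the run term: without it the median was -0.31 in Asxl1 KO, -0.37 in Dnmt3a KO and -0.049 in Tet2 KO against Rosa KO, -0.056 in Asxl1 KO against Dnmt3a KO and -0.37 in Dnmt3a KO against Tet2 KO. Within run 1 (1 residual degree of freedom) it was -0.58 in Asxl1 KO against Rosa KO and -1.01 against Dnmt3a KO. With 1 library left out it ranged from 0.30 to 0.76 in Dnmt3a KO against Rosa KO, from -0.63 to -0.26 in Asxl1 KO against Dnmt3a KO and from -0.20 to 0.31 in Dnmt3a KO against Tet2 KO. The cause was not tested. Of 416 single-gene values, 59 had another sign than the reported one, none past the threshold, and 12 of these had moved by more than the reported SE. Without a run term these were Hist1h2ao in Asxl1 KO (-0.33), Dnmt3a KO (-0.40) and Tet2 KO (-0.11), Hist1h2bq in Dnmt3a KO (-0.14) and Tet2 KO (-0.047), and Hist1h2an (-0.70) and Hist1h2br (-0.34) in Dnmt3a KO, each against Rosa KO. In Asxl1 KO against Rosa KO, Hist1h2an was -0.72 and Hist1h2bq -0.43 within run 1, and Hist1h2br 0.19 within run 3. Hist1h2ao in Dnmt3a KO against Rosa KO ranged from -0.25 to 0.76 with 1 library left out.

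Replicate numbers are shared between the knockouts. After a fit of knockout and run, 24 same-numbered pairs had residual correlations of -0.67 to 0.22, median -0.04, with 2 over 0.1. Pairs with different numbers were not compared, and many same-numbered pairs lie in different runs. These values therefore cannot settle whether the numbers pair the libraries. With the replicate block the count was again 0 of 8 in each comparison, the medians against Rosa KO were 0.03, 0.32 and 0.37 in Asxl1, Dnmt3a and Tet2 KO, and Hist1h4n in Dnmt3a KO turned to -2.43. The calls over all genes against Rosa KO went from 227, 30 and 204 to 51, 0 and 52. Depth limits Hist1h4m, Hist1h4n and Hist1h2al, whose standard errors were above 1.1 on the log2 scale, so differences of that size in these 3 genes lie within their error.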
